A study of Mus musculus with 8 samples.

Results

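The 10 nuclear genes described here encode the proteins that copy, transcribe and stabilise the mitochondrial genome, and they were compared between cerebella of *Atm*-WT and *Atm*-KO mice. They were taken by name and by role, with earlier results of these data known, and all 10 were found among the 56691 genes of the count table. They comprise *Polg*, *Polg2* and *Twnk* for copying, *Polrmt*, *Tfam* and *Tfb2m* for transcription, *Lrpprc* and *Slirp* for the stability of mitochondrial mRNA, and the coactivator gene *Ppargc1a*. *Tfb1m*, a relative of *Tfb2m* that methylates mitochondrial ribosomal RNA, is grouped here with the transcription genes. Cerebellar RNA was sequenced in bulk from 4 *Atm*-WT mice, with the genotype ATM +/+, and 4 *Atm*-KO mice, with the genotype ATM -/-, all aged 6 months and with 1 library per mouse. The line was *B6;129S4-Atmtm1Bal/J*, in which the *Atm* allele is disrupted in every cell of the body, and heterozygous parents gave both the knockouts and their wild-type littermates. The harvest described for the brains of the study, with avertin anesthesia and a saline perfusion through the heart before freezing, was common to both genotypes, and no treatment is given in the labels. Mice are named here by the number and letter of their label, which are 2M, 7M, 13M and 32M for *Atm*-WT and 1M, 7F, 11M and 12M for *Atm*-KO.

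Mitochondria carry a small circular genome of their own, and every protein needed to copy it or read it out is encoded in the nucleus, made in the cytosol and imported. DNA polymerase gamma and the helicase Twinkle replicate the circle, a dedicated RNA polymerase transcribes it from promoters bent and packaged by TFAM, and the LRPPRC and SLIRP pair protects the resulting mRNAs. Neurons of the cerebellum depend heavily on oxidative phosphorylation, and inherited defects in several of these genes are known for causing ataxia.

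Libraries held from 65967130 to 88030300 counts, so each of the 10 genes had between 235 and 9402 counts in every library, and all 10 passed the filter on low counts. Values are CPM, counts scaled to a common library size with TMM factors, and differences are log2 fold changes of *Atm*-KO against *Atm*-WT fitted by edgeR (quasi-likelihood) on 22423 genes, with p adjusted over all of them by Benjamini-Hochberg. *Atm* itself was lower in every *Atm*-KO library, at 45.4 ± 4.16 against 71.5 ± 10.1 CPM (SD, n = 4 each; log2 fold change −0.66, adjusted p = 0.0775 from edgeR and 2.01e-05 from DESeq2), so *Atm* RNA was reduced but not absent in the knockouts. The female library is in the *Atm*-KO group, since mouse 7F held 70528 *Xist* counts and no other mouse more than 14. The defining granule cell marker *Gabra6* (592 and 610 CPM in *Atm*-WT and *Atm*-KO) and the Purkinje cell marker *Calb1* (1052 and 1032 CPM) were abundant in both genotypes, the Purkinje cell marker *Pcp2* was at 67.4 and 51.2 CPM, and the choroid plexus marker *Ttr* was at 1010 and 714 CPM. Transcripts of the TEC class, GENCODE models that still await experimental testing, took from 0.204% to 0.333% of counts in *Atm*-WT and from 0.354% to 0.529% in *Atm*-KO libraries. Over all genes tested 46.9% of fold changes were positive, and over protein-coding genes 36.2%, so most were negative. Among marker lists, 7 of 7 oligodendrocyte genes had negative fold changes, with a summed level of 3235 to 4265 CPM in *Atm*-WT and 1953 to 3336 CPM in *Atm*-KO. Likewise 7 of 7 microglia genes were negative, with sums of 83.0 to 117 and 65.4 to 86.3 CPM, as were 6 of 6 choroid plexus genes, with sums of 773 to 1547 and 421 to 1202 CPM. All 7 astrocyte and Bergmann glia genes were negative too, with sums of 2411 to 2629 and 2196 to 2434 CPM. Of 8 Purkinje cell markers 7 were negative, with sums of 8192 to 10066 and 8071 to 9622 CPM, and of 7 molecular layer interneuron markers 6 were negative, with sums of 530 to 564 and 462 to 480 CPM. Most of the interneuron sum was *Pvalb*, at 351 and 287 CPM in *Atm*-WT and *Atm*-KO. It was the only interneuron marker called by DESeq2, and the genotypes overlapped in all others of that list. Of 6 endothelial markers 4 were positive, with sums of 201 to 249 and 189 to 244 CPM. Of 8 granule cell markers 6 were positive, with sums of 5830 to 6979 and 6139 to 8296 CPM. No marker had a mean of 0 in either genotype, and none of these lists held a gene past an adjusted p of 0.05 in edgeR. DESeq2 called 4 microglia, 2 astrocyte and Bergmann glia, 1 interneuron and 1 endothelial marker, all lower, where it called 2.44% of all genes lower, and the part of these cell types in the values below was not tested. In such bulk samples fewer cells of a type and less RNA per cell cannot be told apart.

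Levels of 2 of the 10 genes, both subunits of DNA polymerase gamma, were higher in every *Atm*-KO mouse than in any *Atm*-WT mouse, and the genotypes overlapped in the other 8. For *Polg2* the gap was narrow, from 6.86 CPM (589 counts) in *Atm*-WT mouse 13M to 6.93 CPM (537 counts) in *Atm*-KO mouse 7F. In edgeR, 0 of the 10 passed an adjusted p of 0.05, where 0.0178% of all genes tested did. At an unadjusted p under 0.05 there were 2 higher (background 11.7%) and 0 lower (background 8.48%). Genotypes that did not overlap were found for 2 of 10 genes in the higher direction, against 6.47% of all genes tested and 4.4% of protein-coding genes, and for 0 in the lower direction, against 5.12%. DESeq2 called the same 2 genes higher at an adjusted p under 0.05 (background 5.05% of the genes it tested) and 0 lower (background 2.44%), whereas limma voom called 0. The median log2 fold change of the 10 genes was −0.04, beside −0.02 over all genes tested and −0.06 over protein-coding genes. Its sign rested on the scaling, at 0.0059 with library size alone and 0.0012 with protein-coding genes alone. Over all genes of those fits the medians were 0.031 and −0.018, above the median of the 10 genes in the first and below it in the second. The median of the 10 genes was 0.0095 with the TEC share as a covariate, and without *Atm*-KO mouse 11M it was −0.0035. The plot of CPM by mouse shows these values for each gene.

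**Figure D1:**
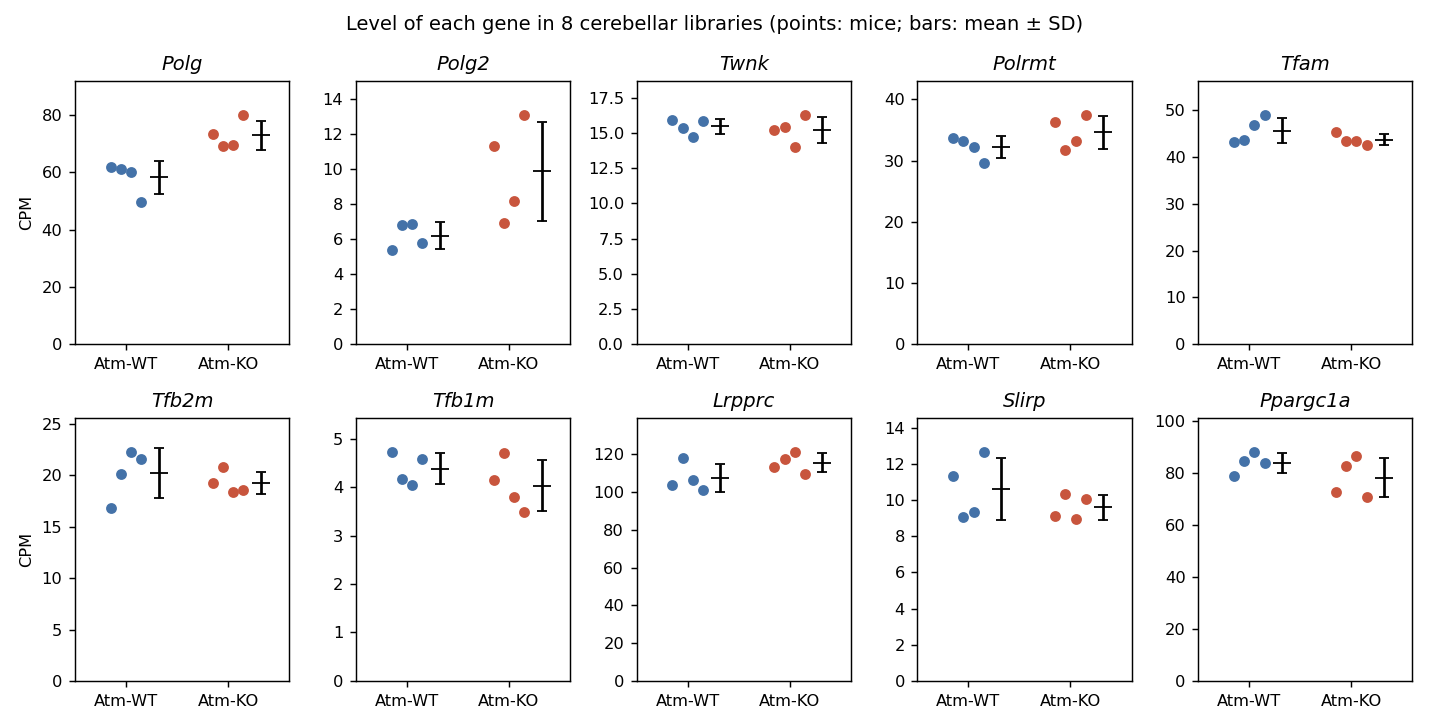
CPM of each of the 10 genes in the 4 *Atm*-WT (blue) and 4 *Atm*-KO (red) libraries, each point a mouse and each bar the mean ± SD, on axes that start at 0. Values of the genotypes do not overlap for *Polg* and *Polg2* and are mixed for the other 8 genes. For *Polg2* the gap is only that between 6.86 and 6.93 CPM, and its *Atm*-KO values are the most spread, from 6.93 to 13.04 CPM.

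*Polg*, the catalytic subunit of DNA polymerase gamma, lies on chromosome 7 of GRCm39 from 79095974 to 79116110 on the minus strand, with 23 exons in its canonical transcript. Its level was 61.9, 61.3, 60.2 and 49.8 CPM in *Atm*-WT mice 2M, 7M, 13M and 32M, and 73.4, 69.1, 69.4 and 79.9 CPM in *Atm*-KO mice 1M, 7F, 11M and 12M. Mouse 32M was the low point and mouse 12M the high point, and the genotypes were separated by the gap between 61.9 and 69.1 CPM. The log2 fold change was 0.32 (standard error 0.082, 95% interval 0.14 to 0.50, edgeR adjusted p = 0.102). By a two-sided exact permutation test on log2 CPM the p was 0.0286, the smallest that 4 mice against 4 allow. DESeq2 gave the same fold change of 0.32 with an adjusted p of 0.0218.

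*Polg2*, the accessory subunit that binds the catalytic subunit and makes it processive, lies on chromosome 11 from 106658823 to 106670384 on the minus strand and has 8 exons. Its level was 5.34, 6.78, 6.86 and 5.78 CPM in *Atm*-WT mice 2M, 7M, 13M and 32M, and 11.3, 6.93, 8.14 and 13.04 CPM in *Atm*-KO mice 1M, 7F, 11M and 12M. *Atm*-KO mouse 7F stood just above the highest *Atm*-WT mouse, 13M, while mice 1M and 12M stood far above it. The log2 fold change was 0.67 (standard error 0.19, 95% interval 0.25 to 1.09, edgeR adjusted p = 0.116), and the two-sided exact permutation p was again 0.0286. DESeq2 gave an adjusted p of 0.0134. Leaving out *Atm*-KO mouse 12M lowered the log2 fold change to 0.50, and leaving out *Atm*-KO mouse 7F raised it to 0.82.

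Among *Atm*-KO mice the order of both levels was that of the TEC share of the library. *Atm*-KO mice 12M and 1M, with the highest levels of *Polg* and *Polg2*, had TEC shares of 0.529% and 0.513%, against 0.402% in 11M and 0.354% in 7F. Among *Atm*-WT mice the order differed. Mouse 32M had the lowest TEC share, 0.204%, and the lowest *Polg* level, but *Polg* was lower in 13M than in 7M and 2M at TEC shares of 0.333%, 0.327% and 0.276%, and the lowest *Polg2* level was in 2M. With the TEC share as a covariate, a fit chosen after seeing the data, the log2 fold change was 0.10 for *Polg* and −0.02 for *Polg2* (adjusted p = 0.998 for each from edgeR). TEC shares of the genotypes did not overlap, so the share and the genotype cannot be told apart. Exons of *Polg* overlap those of *Fanci* on the opposite strand over 9.29% of their length, and exons of *Polg2* overlap those of *Milr1* over 8.2%. No source used here gives the strand setting of featureCounts, so reads of these neighbours could be counted or dropped. Their own levels were low, at 1.01 and 1.23 CPM for *Fanci* and 0.202 and 0.171 CPM for *Milr1* in *Atm*-WT and *Atm*-KO.

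**Figure D2:**
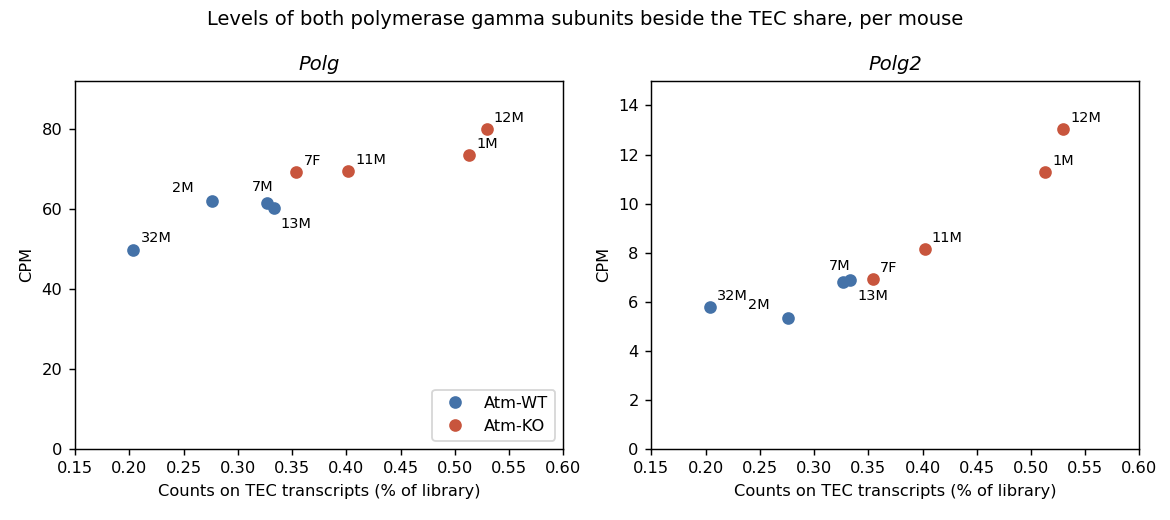
CPM of *Polg* (left) and *Polg2* (right) against the percent of each library's counts on TEC transcripts, each point a mouse labelled by its name, *Atm*-WT in blue and *Atm*-KO in red. Mice 1M and 12M, at TEC shares of 0.513% and 0.529%, lie highest in both panels, and *Polg2* of mice 7M, 13M and 7F lies between 6.78 and 6.93 CPM at shares of 0.327% to 0.354%.

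The promoters of the subunits are printed because these were the members that were higher together. They are windows of 300 bases around the annotated start, taken from RefSeq on GRCm38.p6, an earlier build than that of the counts, so their coordinates are not to be set beside those above. The windows are chr7:79466224-79466523 for *Polg* and chr11:106779488-106779787 for *Polg2*, both on the minus strand and written 5′ to 3′ in the direction of transcription. Capitals mark the ETS site CCGGAAG, the core to which the mitochondrial biogenesis factor GABPA binds, read on both strands.
Polg: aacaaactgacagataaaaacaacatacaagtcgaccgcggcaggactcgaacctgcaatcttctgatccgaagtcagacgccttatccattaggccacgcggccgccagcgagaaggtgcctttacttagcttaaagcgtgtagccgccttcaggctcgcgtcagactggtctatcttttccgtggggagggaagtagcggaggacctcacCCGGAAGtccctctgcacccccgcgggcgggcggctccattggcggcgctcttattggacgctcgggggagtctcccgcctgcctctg
Polg2: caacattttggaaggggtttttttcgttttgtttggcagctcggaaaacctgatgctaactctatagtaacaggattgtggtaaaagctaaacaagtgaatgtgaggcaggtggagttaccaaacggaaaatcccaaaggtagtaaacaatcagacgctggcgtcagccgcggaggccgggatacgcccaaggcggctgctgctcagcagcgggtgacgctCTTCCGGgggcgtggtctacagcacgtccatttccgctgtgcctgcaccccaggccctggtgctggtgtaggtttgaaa
Each window held 1 match, at bases 213 to 219 of the *Polg* window and on the other strand at bases 222 to 228 of the *Polg2* window. RefSeq windows were matched for all 10 genes, with more than 1 start for *Twnk*, and 6 of their 11 windows held an ETS match, 1 window each for *Polg*, *Polg2*, *Twnk*, *Polrmt*, *Tfam* and *Slirp*, against 8.86% of the 32851 windows of all genes. The NRF1 core GCGCATGCG was found in 1 window, that of *Tfb2m* (1.75% of all windows), the ERR half-site AAGGTCA in 1, *Twnk* (4.72%), the YY1 core AAGATGGCG in 1, *Slirp* (1.4%), and the CRE TGACGTCA in 0 (1.79%). Matches of the ETS site did not overlap those of any other motif. They describe letters in these windows only.

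*Twnk*, the gene of the Twinkle helicase that unwinds the circle ahead of the polymerase, lies on chromosome 19 from 44994102 to 45001204. Its level was 15.9, 15.3, 14.7 and 15.8 CPM in *Atm*-WT and 15.2, 15.4, 14.0 and 16.2 CPM in *Atm*-KO mice, in the same order of mice as above. The highest and the lowest value both fell in *Atm*-KO mice. Its log2 fold change was −0.02 (standard error 0.083, 95% interval −0.21 to 0.16, adjusted p = 0.902 from edgeR). Its exons share 29.1% of their length with *Mrpl43* on the opposite strand (17.6 and 16.4 CPM in *Atm*-WT and *Atm*-KO), which leaves the *Twnk* count uncertain.

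Ratios within a library do not depend on how libraries are scaled, and 5 pairs of partner genes were compared in this way with two-sided exact permutation tests and Benjamini-Hochberg adjustment over the 5. The log2 ratio of *Twnk* to *Polg* averaged −1.91 ± 0.174 over *Atm*-WT and −2.26 ± 0.0663 over *Atm*-KO libraries (SD, n = 4 per genotype), a difference of −0.35 with an exact p of 0.0286 and an adjusted p of 0.143. All *Atm*-KO mice, at −2.31 to −2.17, were below all *Atm*-WT mice, at −2.03 to −1.65. With *Twnk* at a log2 fold change of −0.02 and *Polg* at 0.32, this mostly restates the difference of *Polg*. The log2 ratio of *Polg2* to *Polg* was −3.24 ± 0.200 and −2.93 ± 0.331, and its genotypes overlapped (exact p = 0.200, adjusted p = 0.314). With a mouse left out its difference of 0.31 ran from 0.20 (without *Atm*-KO mouse 12M, exact p = 0.400) to 0.43 (without *Atm*-KO mouse 7F, which held the lowest *Atm*-KO ratio, exact p = 0.0286). The differences were −0.16 for *Tfam* to *Polrmt*, −0.17 for *Tfb2m* to *Polrmt* and −0.24 for *Slirp* to *Lrpprc*, with exact p between 0.171 and 0.314 and the same adjusted p of 0.314 for each. With a mouse left out they ran from −0.21 (*Atm*-WT mouse 2M) to −0.091 (*Atm*-WT mouse 32M), from −0.27 (2M) to −0.094 (32M) and from −0.36 (*Atm*-WT mouse 7M) to −0.12 (32M).

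None of the 4 genes of the transcription step passed the test. *Polrmt*, the mitochondrial RNA polymerase, lies on chromosome 10 from 79571957 to 79582420 and overlaps no other gene. Its level was 33.7, 33.1, 32.3 and 29.7 CPM in *Atm*-WT and 36.3, 31.7, 33.2 and 37.4 CPM in *Atm*-KO mice. *Atm*-KO mice 1M and 12M were above all *Atm*-WT mice and the other two were among them. This gave a log2 fold change of 0.11 (95% interval −0.06 to 0.27, adjusted p = 0.460 from edgeR). *Tfam*, the packaging protein that bends promoter DNA and coats the genome, lies on the same chromosome from 71061287 to 71074110. Its level was 43.3, 43.5, 46.7 and 48.9 CPM in *Atm*-WT and 45.2, 43.5, 43.5 and 42.6 CPM in *Atm*-KO mice. The spread was wider among *Atm*-WT than among *Atm*-KO mice, whose values all lay at or below 45.2 CPM. Its log2 fold change of −0.06 had the narrowest interval of the 10 genes, from −0.20 to 0.08 (adjusted p = 0.625 from edgeR).

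*Tfb2m*, the factor that melts the promoter for the polymerase, lies on chromosome 1 from 179355610 to 179374548. Its level was 16.9, 20.1, 22.3 and 21.6 CPM in *Atm*-WT and 19.3, 20.8, 18.4 and 18.6 CPM in *Atm*-KO mice. The *Atm*-KO values all lay inside the *Atm*-WT range (log2 fold change −0.07, 95% interval −0.28 to 0.15, adjusted p = 0.726 from edgeR), and leaving out a mouse moved the difference between −0.15 (*Atm*-WT mouse 2M) and −0.0049 (*Atm*-WT mouse 13M). Its exons overlap those of *Cnst* on the opposite strand over 9.25% of their length, and *Cnst* was at 107 and 103 CPM in *Atm*-WT and *Atm*-KO, so the *Tfb2m* count is uncertain too. *Tfb1m*, its relative that methylates the small mitochondrial ribosomal RNA, lies on chromosome 17 from 3563847 to 3608190. It was the least abundant of the genes, at 4.72, 4.18, 4.04 and 4.58 CPM in *Atm*-WT and 4.14, 4.70, 3.79 and 3.48 CPM in *Atm*-KO mice. Mice 11M and 12M were below all *Atm*-WT mice and mouse 7F was near the top of them. The fitted log2 fold change was −0.12, with a wide interval of −0.44 to 0.20 (adjusted p = 0.678 from edgeR). Its exons overlap those of *Tiam2* over 31% of their length (15.9 and 18.2 CPM in *Atm*-WT and *Atm*-KO), which makes this count uncertain.

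*Lrpprc*, which holds mitochondrial mRNAs in a complex with SLIRP and favours their polyadenylation, lies on chromosome 17 from 85012670 to 85098279 and has 38 exons. Its level was 104, 118, 106 and 101 CPM in *Atm*-WT and 114, 118, 121 and 110 CPM in *Atm*-KO mice. *Atm*-WT mouse 7M stood among the *Atm*-KO mice, and the other *Atm*-WT mice were below all of them. Its log2 fold change was 0.11 (95% interval −0.04 to 0.25, adjusted p = 0.383 from edgeR). *Slirp*, the small RNA-binding partner, lies on chromosome 12 from 87490572 to 87506290. Its level was 11.3, 9.08, 9.35 and 12.7 CPM in *Atm*-WT and 9.11, 10.3, 8.94 and 10.04 CPM in *Atm*-KO mice. *Atm*-WT mice 2M and 32M were above all *Atm*-KO mice and the other two were among them (log2 fold change −0.14, 95% interval −0.42 to 0.14, adjusted p = 0.556 from edgeR). Leaving out a mouse moved this difference between −0.22 (*Atm*-WT mouse 7M) and −0.049 (*Atm*-WT mouse 32M). In the annotation used here 53.5% of its exon length is shared with *Snw1* on the opposite strand (68.8 and 62.4 CPM in *Atm*-WT and *Atm*-KO), so *Slirp* is the least certain of these counts.

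*Ppargc1a* encodes a coactivator of nuclear receptors and of NRF1 that drives the program of mitochondrial biogenesis, and it lies on chromosome 5 from 51611592 to 51725068. Its level was 78.6, 84.6, 87.9 and 83.6 CPM in *Atm*-WT and 72.7, 82.4, 86.5 and 70.7 CPM in *Atm*-KO mice. *Atm*-KO mice 1M and 12M were below all *Atm*-WT mice, and mice 7F and 11M were within their range. The log2 fold change was −0.10 (standard error 0.076, 95% interval −0.27 to 0.07, adjusted p = 0.487 from edgeR). For the 8 genes from *Twnk* to *Ppargc1a* the intervals reached no lower than −0.44 and no higher than 0.27, which leaves differences inside those bounds undetected at this number of mice. Leaving out a mouse moved *Polrmt* between 0.066 (*Atm*-KO mouse 12M) and 0.16 (*Atm*-KO mouse 7F), *Tfam* between −0.088 (*Atm*-WT mouse 7M) and −0.028 (*Atm*-WT mouse 32M), and *Tfb1m* between −0.19 (*Atm*-KO mouse 7F) and −0.058 (*Atm*-KO mouse 12M). For *Ppargc1a* the range was −0.14 (*Atm*-KO mouse 11M) to −0.055 (*Atm*-KO mouse 12M), and for *Lrpprc* 0.077 (*Atm*-WT mouse 32M) to 0.15 (*Atm*-WT mouse 7M).

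**Figure D3:**
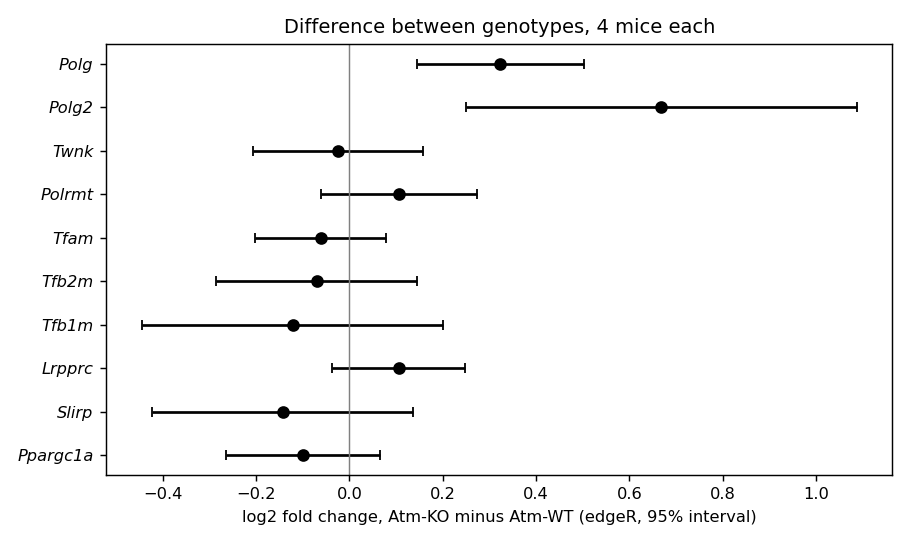
Log2 fold change of *Atm*-KO against *Atm*-WT for each gene from edgeR, with points for the estimates and bars for 95% intervals, n = 4 mice per genotype. Intervals of *Polg* (0.14 to 0.50) and *Polg2* (0.25 to 1.09) lie above 0, before any adjustment for the number of genes, and the other 8 include 0.

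Per kilobase of annotated exon, *Ppargc1a* was the most abundant of the 10 genes, with 11.8 ± 0.546 CPM per kilobase for *Atm*-WT and 11.1 ± 1.08 for *Atm*-KO. *Tfam* followed with 9.70 ± 0.574 and 9.29 ± 0.237, *Lrpprc* with 8.80 ± 0.604 and 9.46 ± 0.411, *Polrmt* with 6.87 ± 0.381 and 7.39 ± 0.568, and *Polg* with 5.09 ± 0.499 and 6.36 ± 0.438. The lower part of the order was *Twnk* (3.55 and 3.50), *Tfb2m* (3.52 and 3.36), *Slirp* (1.86 and 1.69), *Polg2* (0.998 and 1.59) and *Tfb1m* (0.437 and 0.402). Ranges over the 8 libraries overlapped between *Ppargc1a* and *Tfam*, *Tfam* and *Lrpprc*, *Polrmt* and *Polg*, *Twnk* and *Tfb2m*, and *Slirp* and *Polg2*. They were separate between *Lrpprc* and *Polrmt*, *Polg* and *Twnk*, *Tfb2m* and *Slirp*, and *Polg2* and *Tfb1m*. The order depends on the length used. With the longest transcript in place of all annotated exons, 3 of the 10 genes kept their rank, and *Lrpprc*, at 23.7 CPM per kilobase, came first.

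**Figure D4:**
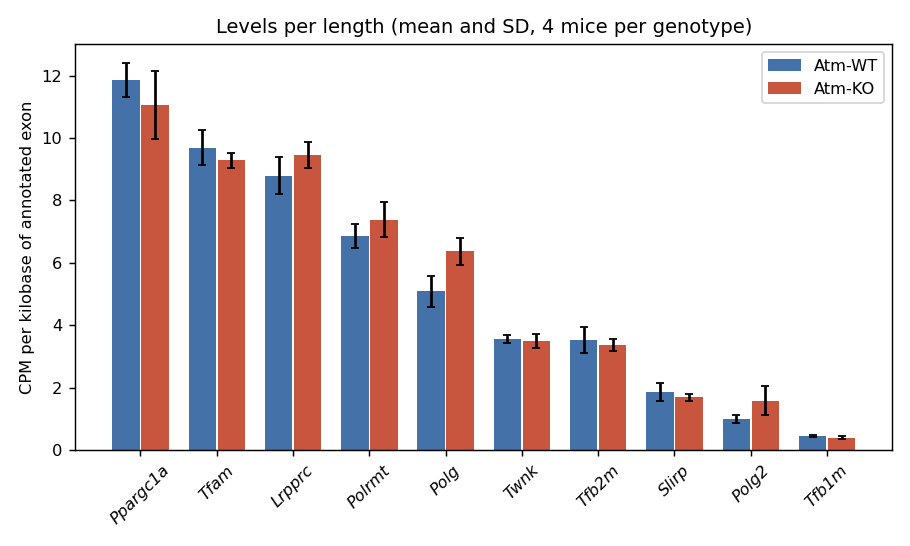
Level of each gene in CPM per kilobase of annotated exon, with bars for the mean and lines for the SD of 4 mice, *Atm*-WT in blue and *Atm*-KO in red, on an axis that starts at 0. Levels run from 11.8 for *Ppargc1a* to 0.437 for *Tfb1m* in *Atm*-WT mice.

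Among 15729 other genes with a mean of at least 1 CPM, those with a pattern over the 8 libraries nearest to *Tfam* were *Rbx1*, *Wsb2* and *Blmh*, with root-mean-square differences of 0.022, 0.025 and 0.025 in centred log2 CPM. *Tfam* itself varied with an SD of 0.068 on that scale. Nearest to *Ppargc1a*, whose SD was 0.12, were *Arhgap29*, *Macrod2* and *Pja2*, at 0.027, 0.033 and 0.034. Within the 10 genes, *Polg* was nearest to *Polrmt* (0.12) and *Polg2* to *Polg* (0.28), so that *Polg2* lay farthest from any other member. The measure grows with a gene's own spread, and the SD of *Polg2*, 0.45, was the largest of the 10.

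Other genes of the same pathway were read from lists fixed by role, all of which were tested. None of these lists held a gene past an adjusted p of 0.05 in edgeR or in limma voom, and DESeq2 called 9 of the 89 genes of the 6 lists, or 10.1%, against 7.49% of all genes it tested. They were 5 mitochondrial transcripts and 4 of the 74 nuclear genes, or 5.41%, which is below that background. Positive fold changes were found for 46.9% of all genes tested and 36.2% of protein-coding genes. Of 12 other factors of mitochondrial DNA replication and repair, 9 had positive fold changes, with a median of 0.05, and 4 had an unadjusted p under 0.05 in the higher direction, where 11.7% of all genes tested did. With a mouse left out the median ran from 0.035 (without *Atm*-KO mouse 1M) to 0.12 (without *Atm*-WT mouse 32M), and it was 0.10 with library size alone, 0.098 with protein-coding genes alone, 0.13 with a surrogate variable and 0.14 without mice 32M and 12M. *Ssbp1*, the mitochondrial single-stranded DNA-binding protein that works beside the polymerase and Twinkle, was at 18.7, 15.7, 17.7 and 14.3 CPM in *Atm*-WT and 23.5, 18.9, 21.2 and 23.5 CPM in *Atm*-KO mice. The genotypes did not overlap, with mouse 7F of the *Atm*-KO group close above the highest *Atm*-WT mouse. Its log2 fold change was 0.39 (standard error 0.11, adjusted p = 0.111 from edgeR and 0.0202 from DESeq2). *Dna2*, a nuclease and helicase of nucleus and mitochondrion, had levels of 2.24 ± 0.128 and 3.08 ± 0.307 CPM that did not overlap either (log2 fold change 0.46, adjusted p = 0.153 from edgeR and 0.0488 from DESeq2). With the TEC share as a covariate the log2 fold changes of *Ssbp1* and *Dna2* were 0.12 and 0.22. On the negative side, the flap endonuclease gene *Fen1* (−0.23) and the nuclease gene *Exog* (−0.17) had adjusted p of 0.255 and 0.279 in edgeR. *Fen1* was at −0.15 without *Atm*-WT mouse 13M and −0.086 with the TEC share as a covariate, and *Exog* was at −0.11 without *Atm*-KO mouse 12M.

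Of 11 genes of mitochondrial nucleotide supply, 3 were positive and 8 negative, with a median of −0.07 that ran from −0.11 (without *Atm*-WT mouse 7M) to −0.056 (without *Atm*-KO mouse 11M) and was 0.0098 with the TEC share as a covariate. *Slc25a33*, a pyrimidine nucleotide carrier, was at 39.8 ± 5.74 and 33.0 ± 3.70 CPM (log2 fold change −0.27, adjusted p = 0.203 from edgeR), and at −0.16 on the log2 scale without *Atm*-WT mouse 13M. *Abat*, the GABA transaminase, was at 417 ± 15.2 and 361 ± 52.1 CPM (−0.21, adjusted p = 0.247 from edgeR). The deoxyguanosine kinase gene *Dguok* (0.22) and the carrier gene *Slc25a36* (0.14) were the positive ones with the smallest p. With the TEC share as a covariate *Dguok* was at 0.080, and *Slc25a36* ran from 0.088 without *Atm*-KO mouse 1M to 0.22 without *Atm*-WT mouse 13M. Genotypes overlapped in all 11 genes. Of 7 genes of transcription elongation and termination, 5 were positive, with a median of 0.10 that ran from 0.012 (without *Atm*-KO mouse 1M) to 0.16 (without *Atm*-WT mouse 13M). *Mterf1b* rested on 1.54 ± 0.0802 and 2.20 ± 0.184 CPM without overlap (log2 fold change 0.52, adjusted p = 0.144 from edgeR and 0.0456 from DESeq2), and it shares sequence with its near copy *Mterf1a*, so reads may be divided between them. *Mterf4* had a log2 fold change of 0.19, and the elongation factor gene *Tefm* (−0.0035) and *Mrpl12* (−0.02) had values near 0 whose sign changed with the processing.

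Of 30 genes of mitochondrial RNA processing, modification and decay, 16 were positive and 14 negative, with a median of 0.02 that ran from −0.0017 (without *Atm*-WT mouse 2M) to 0.046 (without *Atm*-WT mouse 13M). *Mettl17*, which is needed for the small subunit of the mitochondrial ribosome, was at 13.4, 13.9, 10.99 and 10.4 CPM in *Atm*-WT and 20.5, 15.6, 17.4 and 21.6 CPM in *Atm*-KO mice. The genotypes did not overlap, and mice 1M and 12M were again the highest. Its log2 fold change was 0.63 (standard error 0.13, adjusted p = 0.0931 from edgeR and 0.00114 from DESeq2), and 0.24 with the TEC share as a covariate. *Pnpt1*, an exoribonuclease of the mitochondrial degradosome, was at 21.1 ± 0.496 and 25.0 ± 1.53 CPM without overlap (0.25, adjusted p = 0.123 from edgeR and 0.0509 from DESeq2). *Ddx28*, an RNA helicase, was lower without overlap, at 12.4 ± 0.458 and 10.4 ± 0.658 CPM (−0.26, adjusted p = 0.165 from edgeR). *Hsd17b10*, a subunit of mitochondrial RNase P, had a log2 fold change of −0.22 (adjusted p = 0.245 from edgeR), and of −0.068 with the TEC share as a covariate.

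Of 14 nuclear regulators of mitochondrial biogenesis, 5 were positive and 9 negative, with a median of −0.06 that ran from −0.084 (without *Atm*-WT mouse 32M) to −0.00014 (without *Atm*-WT mouse 7M) and was −0.17 with the TEC share as a covariate. *Esrrg*, an orphan nuclear receptor that works with the *Ppargc1a* product, was at 133 ± 8.53 and 112 ± 10.4 CPM (log2 fold change −0.24, adjusted p = 0.138 from edgeR). The lipid-sensing receptor gene *Ppard* was lower without overlap, at 18.6 ± 1.70 and 15.2 ± 1.29 CPM (−0.30, adjusted p = 0.138 from edgeR, and −0.16 with the TEC share as a covariate). The GABP subunit gene *Gabpb2* (0.19) and *Ppargc1b* (0.11), a relative of *Ppargc1a*, had adjusted p of 0.445 and 0.678 in edgeR, and without *Atm*-WT mouse 32M they were at 0.076 and 0.012.

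Of 15 mitochondrial mRNAs and ribosomal RNAs 14 had negative fold changes, with a median of −0.55 (−0.14 with the TEC share as a covariate), and 8 had an unadjusted p under 0.05, all lower, of which DESeq2 called 5 at an adjusted p under 0.05, against 8.48% of all genes lower at that unadjusted p and 2.44% called lower by DESeq2. Of summed levels of 9306 to 12155 CPM in *Atm*-WT and 5507 to 9610 CPM in *Atm*-KO libraries, *mt-Co1* alone averaged 6891 and 4717 CPM. By contrast, *mt-Co2*, *mt-Co3* and *mt-Atp6* averaged 13.7, 23.4 and 5.05 CPM in *Atm*-WT. Whether reads of such genes went uncounted was not tested, so the share describes counted reads and mostly *mt-Co1*. The 15 together took 1.20%, 0.901%, 0.907% and 1.13% of counts in *Atm*-WT mice 2M, 7M, 13M and 32M and 0.670%, 0.950%, 0.724% and 0.564% in *Atm*-KO mice 1M, 7F, 11M and 12M. Mouse 7F lay among the *Atm*-WT mice and the genotypes therefore overlapped (difference −0.31 percentage points, two-sided exact permutation p = 0.0857, with a mouse left out from 0.0286 without 7F, the overlapping mouse, to 0.171 without 1M or 12M). *mt-Nd2*, a complex I subunit, was at 445, 288, 251 and 272 CPM in *Atm*-WT and 178, 230, 168 and 152 CPM in *Atm*-KO mice (log2 fold change −0.78, from −0.90 to −0.48 over 19 alternatives, adjusted p = 0.0931 from edgeR and 0.000685 from DESeq2). *mt-Nd5*, another, was at 381 ± 124 and 228 ± 3.74 CPM (−0.74, adjusted p = 0.0938 from edgeR and 0.00106 from DESeq2), and the genotypes did not overlap in either. *Atm*-WT mouse 2M, at 565 CPM, was the highest for *mt-Nd5*, and without it the log2 fold change was −0.49. The only positive value was that of *mt-Atp8* (0.17), at 0.347 and 0.388 CPM.

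**Figure D5:**
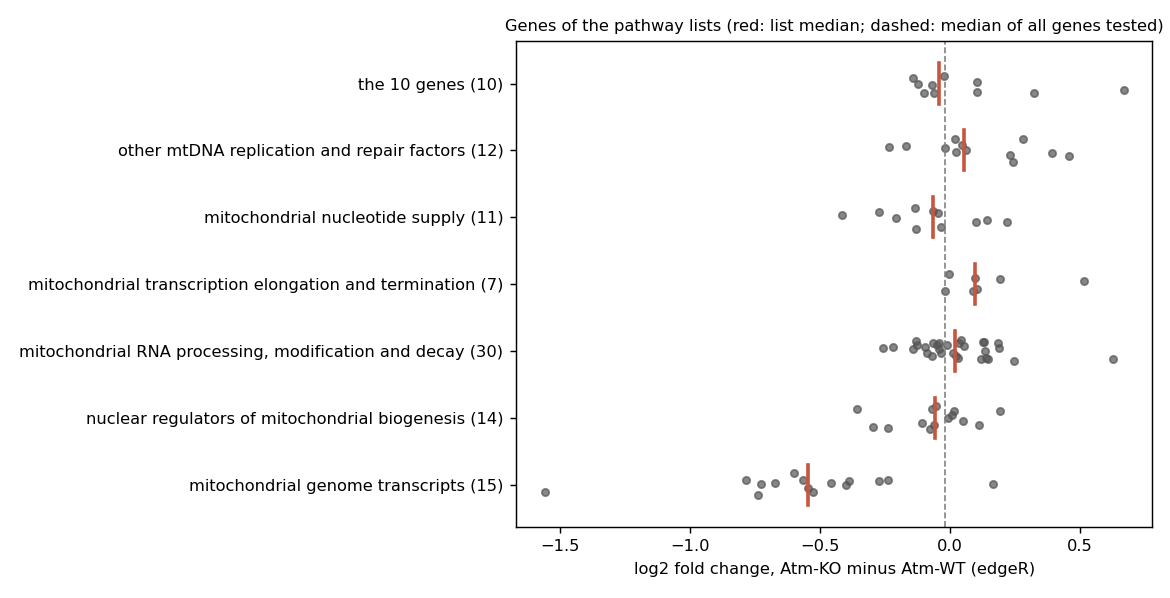
Log2 fold change of *Atm*-KO against *Atm*-WT from edgeR for the 10 genes and for each gene of the 6 pathway lists, with the number of genes in brackets, red lines at list medians and a dashed line at −0.02, the median of all genes tested. Medians of the 5 nuclear lists lie between −0.07 and 0.10 and that of the mitochondrial transcripts at −0.55.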

How the data were processed

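Frozen cerebella of 8 mice were sequenced by Novogene. The authors checked reads with FastQC 0.11.9, aligned them with STAR to GRCm39 with the GENCODE annotation, counted them per gene with featureCounts and deposited raw counts without normalization. Strand and pair settings are not stated. Identifiers were matched without version to GENCODE vM39 on GRCm39 (98.8% of 56691), which gave symbols, positions, exon lengths and overlaps, and is a later release than the one the authors name.

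Libraries were grouped by the genotype in their labels. Genes kept by filterByExpr (22423) were normalized by TMM and tested with glmQLFit and glmQLFTest of edgeR 4.0.16 in R 4.3.3, with Benjamini-Hochberg adjustment and no covariate. Standard errors are the absolute log2 fold change divided by the square root of the F statistic, and intervals use the total degrees of freedom. Log2 CPM used a prior count of 2. For single values, a two-sided exact permutation test over the libraries was used. Alternatives were DESeq2 1.42.0, limma voom (limma 3.58.1), other factors, filters and gene subsets, halved counts, a surrogate variable (sva 3.50.0) and each library left out. A fit with the TEC share as covariate and a fit without *Atm*-WT mouse 32M and *Atm*-KO mouse 12M were added after seeing the data.

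The 10 genes, the lists and the motifs were chosen with earlier results of these data known. From each list the text names genes past the adjusted threshold or, with none, up to 2 with the smallest p in each direction. Genes that overlap members were named after their values were seen. Nothing in the labels says which mice shared a litter, so p-values measure only the spread between these libraries.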

Additional observations from a re-analysis of the deposited data

Results flagged for a closer look

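Each gene given with its CPM in the text, each ratio, and the mitochondrial and TEC shares were examined within each genotype for a mouse far from the other 3, by Dixon's test at the 95% level on the gap to the nearest mouse over the whole range. Of 102 such groups 5 held one, where chance flags about 1 in 20.

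*Polg* in *Atm*-WT mouse 32M, at 49.8 CPM, lay below the other *Atm*-WT mice, at 60.2 to 61.9 CPM. Without this mouse the log2 fold change of *Polg* was 0.25 (adjusted p = 0.170 from edgeR) in place of 0.32.

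The log2 ratio of *Polg2* to *Polg* in *Atm*-WT mouse 2M, at −3.53, lay below the other *Atm*-WT mice, at −3.18 to −3.10. *Gabpb2* in *Atm*-WT mouse 32M, at 68.0 CPM, lay below the other *Atm*-WT mice, at 97.0 to 99.0 CPM. Of the genes that overlap members, *Cnst* in *Atm*-WT mouse 7M, at 113 CPM, lay above the other *Atm*-WT mice, at 104.7 to 105.4 CPM, and *Snw1* in *Atm*-KO mouse 1M, at 57.4 CPM, lay below the other *Atm*-KO mice, at 63.6 to 64.5 CPM.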

How the results depend on the processing

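No paired analysis was possible because the genotypes share only 1 label number, 7, and nothing says that it marks a shared litter or day. With 4 mice per genotype the smallest exact p is 0.0286, and overlapping genes cannot be separated without the strand setting. Over 20 alternatives the log2 fold change of *Polg* ran from 0.10 to 0.38 and that of *Polg2* from −0.02 to 0.82, with adjusted p from 0.0218 to 0.998 and from 0.0134 to 0.998. Without both *Atm*-WT mouse 32M and *Atm*-KO mouse 12M they were 0.21 and 0.47. The causes of the changes below were not tested.

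DESeq2 called 2 of the 10 genes, 9 pathway genes and 1552 genes in all, where edgeR called 0, 0 and 4. The count over all genes was 591 without a filter on low counts (7 of them pathway genes), 2 for protein-coding genes alone, 15 with a surrogate variable, 24 without mice 32M and 12M, 0 with the TEC share as a covariate, and from 1 to 27 with a mouse left out, lowest without *Atm*-WT mouse 2M, *Atm*-KO mouse 1M or *Atm*-KO mouse 11M and highest without *Atm*-WT mouse 13M. Members with an exact permutation p under 0.05 numbered from 1 (without *Atm*-WT mouse 2M, 13M or 32M) to 3 (without *Atm*-KO mouse 7F) with a mouse left out, against 2. The difference in the log2 ratio of *Polg2* to *Polg* ran from 0.20 to 0.43 and that in the mitochondrial share from −0.38 to −0.25 percentage points, and both were largest in size without *Atm*-KO mouse 7F. By longest transcript 3 of the 10 genes kept their rank.

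With the TEC share as a covariate *Mterf1b* (0.52), *Lrpprc* (0.11) and *Exog* (−0.16) stayed near their main values, and *Atm* was at −0.94 against −0.66 in the main fit. In the fit with that covariate the sign turned for *Polg2* (−0.0212), *Polrmt* (−0.096), *Tfb1m* (0.11), *Slirp* (0.093), *Ppargc1a* (0.034), *Slc25a36* (−0.014), *Abat* (0.065), *Mterf4* (−0.050), *Mrpl12* (0.074), *Tefm* (0.12) and *Gabpb2* (−0.30). Without mice 32M and 12M it turned for *Mrpl12* (0.034), *Tefm* (0.14), *Gabpb2* (−0.0253) and *Ppargc1b* (−0.00970). With library size alone *Twnk*, *Mrpl12* and *Tefm* were at 0.025, 0.029 and 0.042, with at least 10 counts in every library at 0.00204, 0.00611 and 0.022, with protein-coding genes alone at 0.020, 0.024 and 0.040, and with halved counts at 0.000754, 0.00617 and 0.021. The median over all genes moved as well, to 0.031 with library size alone from −0.018 in the main fit. A surrogate variable gave 0.028 for *Mrpl12* and 0.091 for *Tefm*, and *Tefm* was at 0.016 in limma voom and 0.000725 with RLE factors. With a mouse left out, *Twnk* ran from −0.057 to 0.028, *Mrpl12* from −0.081 to 0.071, *Tefm* from −0.13 to 0.11 and *mt-Atp8* from −0.14 to 0.38.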
